A study of Mus musculus with 8 samples.

Results

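The axon guidance ligands and receptors measured in the ventral pallidum (VP) comprised 57 of the 14353 genes with values, 29 ligands and 28 receptors. They were taken by name as the protein-coding members of the semaphorin, plexin, neuropilin, ephrin, Eph receptor, Slit, Robo, netrin, netrin-G, Unc5 and Dcc families, without use of their levels. A further 14 listed genes of these families had no value here, so family counts and shares cover only genes with values. Tissue came from untreated mice homozygous for VGluT2-Cre and heterozygous for the RiboTag allele of Rpl22, which places an HA tag on ribosomes of cells in which Cre has been active. Ribosome-bound RNA was pulled down through the tag (TRAP) and compared with RNA of the same tissue (INPUT). Pooled tissue of males and females gave 1 TRAP and 1 INPUT library for each of VP2.11, VP2.6, VP2.2 and VP1.6, the 4 pools. Pools held 7 to 11 mice, aged 9 to 12 weeks in VP1.6 and 10 to 16 weeks in the other pools, and no control genotype without Cre was analysed. The tag follows vGluT2 expression rather than any single VP cell type, and the methods allow that punches held neighbouring striatum or nucleus accumbens.

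Guidance molecules steer growing axons by attraction or repulsion, and many remain expressed in adult neurons, where they act at synapses. Secreted semaphorins are received by neuropilins together with plexins, Slits by Robo receptors, and netrin-1 by Dcc and Unc5 receptors. Ephrins are held in the membrane of one cell and bind Eph receptors on another, with A-type ephrins preferring EphA and B-type ephrins preferring EphB receptors.

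More receptors and secreted ligands than membrane-held ligands were called higher in TRAP by share, and no ephrin was. In a limma fit over all 14249 genes tested, with the pool as a block and an adjusted p under 0.05 as the threshold, 26 of the 57 members were higher in TRAP and 1 was lower, against a background of 15.4% of all genes higher and 16.8% lower. By role, 15 of 28 receptors were higher and 0 lower (none of the receptors had an unadjusted p under 0.05 in that direction), whereas 11 of 29 ligands were higher and 1 was lower. The median log2 fold change (TRAP over INPUT) was 1.03 for receptors and 0.26 for ligands, with -0.05 for all genes. Among ligands, 7 of the 10 secreted forms were higher (median 1.22), compared with 4 of the 19 forms held in the membrane (median 0.13). With the trend of the differences on exon length taken out, 4 secreted ligands were higher and 1 lower (median 0.76), and 2 membrane-held ligands were higher and 1 lower (median 0.07). In that fit 16.0% of all genes were called in each direction. Both counts of higher secreted ligands include Slit1. It passed the filter of over 1 CPM in at least 3 libraries through TRAP alone, so its call lends them no support. None of the 7 ephrins passed the test, and 2 of them had an unadjusted p under 0.05.

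**Figure D1:**
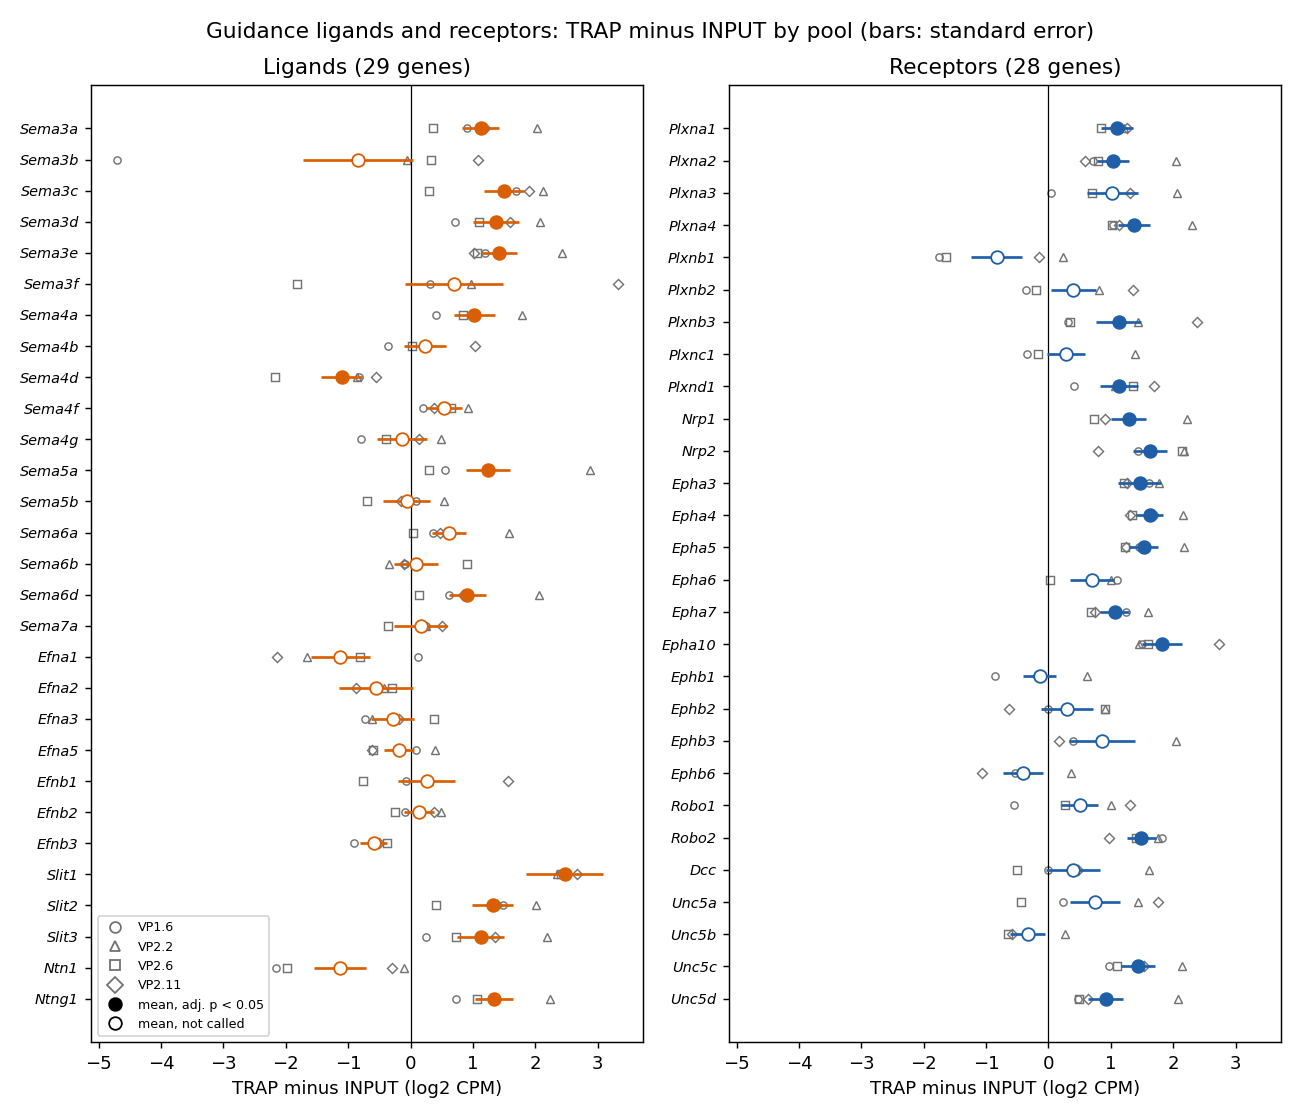
TRAP minus INPUT difference in log2 CPM (x axis) of each ligand (left) and receptor (right). Grey symbols are the 4 pools, large circles the mean with its standard error from the limma fit, filled where the adjusted p was under 0.05. 26 filled circles lie to the right of 0 and 1 (Sema4d) to the left.

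All 57 members passed the filter of over 1 CPM in at least 3 libraries, and 51 were over 1 CPM in all 8 libraries. Slit1 was the only member to pass through TRAP alone. Without it, 25 of 56 members were higher. By sign alone, 31 members were higher in TRAP in all 4 pools (23.3% of all genes) and 4 were lower (24.4%). The members with every TRAP library above every INPUT library were the same 31 (23.3%). Without the pool in the fit, 30 members were higher (23.2% of all genes) and 4 lower (24.8%). Because the deposited values carry almost no shift common to both libraries of a pool, that fit may understate the error. Mean TRAP levels ran from 1.13 CPM for Efna2 to 236.9 CPM for Epha4.

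The fractions themselves differed as follows. Of 3 glutamatergic markers 2 were higher in TRAP. Slc17a6, which encodes vGluT2, was higher (log2 fold change 2.55 ± 0.24 (SE), limma adjusted p = 7.3e-06). Slc17a7 was also higher (1.45, limma adjusted p = 0.00062), and Slc17a8 was not called (-0.03, limma adjusted p = 0.97). Of 8 oligodendrocyte markers 7 were lower in TRAP, with a summed level of 1304 to 2263 CPM in TRAP and 4841 to 5155 CPM in INPUT, and 5 of 8 astrocyte markers were lower. Of 8 microglial markers 5 were lower, and 6 of 8 markers of striatal medium spiny neurons were lower (530.6 to 904.2 CPM in TRAP, 1226 to 1839 CPM in INPUT). Of 5 pan-neuronal markers 4 were higher (Snap25 by 1.93 on the log2 scale). The other lists were mixed, with 1 of 5 oligodendrocyte precursor markers higher (Cspg4, 1.98) and 1 lower, 1 of 6 endothelial and mural markers higher (Flt1, 2.37) and 1 lower, and 1 of 3 GABA markers (Slc32a1) and 1 of 3 cholinergic markers (Slc18a3) lower. The part of these cell types in the members' differences was not tested. Because tissue was measured in bulk, fewer cells of a type and less RNA per cell cannot be told apart.

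The Eph receptors are described by class. All 6 EphA receptors had a positive difference in all 4 pools, and 5 of them were higher in TRAP. Of all genes, 23.3% had a positive difference in all 4 pools, 15.4% were called higher and 16.8% lower. The EphA median was 1.495 on the log2 scale. By contrast, 0 of the 4 EphB receptors passed the test (limma, 0 at an unadjusted p under 0.05), with a median of 0.08. The EphA median exceeded the EphB median in each pool, by 1.75 in VP1.6, 0.92 in VP2.2, 0.87 in VP2.6 and 1.66 in VP2.11 on the log2 scale. No test is given of the difference between the classes, since genes are not replicates.

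Levels per library are given as deposited. They carry almost no shift common to both libraries of a pool, and how that came about is not given in the sources used here, so a CPM value may be an adjusted level, whereas differences within a pool do not depend on such a shift.

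Epha4 (ENSMUSG00000026235; GRCm38 chr1:77367185-77515088), a receptor tyrosine kinase that accepts ephrins of both types, had the highest level per kb of exon among the receptors. Its TRAP levels were 257.6, 229.6, 220.0 and 240.5 CPM (pools VP1.6, VP2.2, VP2.6, then VP2.11, the order used for all values below), and its INPUT levels were 79.3, 51.6, 87.3 and 97.7 CPM. Every TRAP value lay above every INPUT value, and the INPUT of VP2.2 was the lowest. Epha4 was higher by 3.08-fold (log2 fold change 1.62 ± 0.22 (SE), limma adjusted p = 0.00015). Per kb of exon, Epha4 made up 29.3% ± 3.08 (SD, n = 4) of the summed receptor level in TRAP and 20.0% ± 1.26 in INPUT, with the larger share in TRAP in all 4 pools. Its share of the Eph receptors alone was 53.8% ± 2.44 in TRAP and 39.7% ± 2.38 in INPUT.

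Epha5 and Epha7, which are kinases that bind A-type ephrins, followed in level per kb among the EphA receptors. Epha5 measured 104.4, 106.8, 96.1 and 109.9 CPM in TRAP and 38.1, 23.6, 41.1 and 46.5 CPM in INPUT (log2 fold change 1.52 ± 0.23 (SE), limma adjusted p = 0.00031). Epha7 measured 83.1, 79.3, 68.6 and 77.7 CPM in TRAP and 35.0, 26.2, 42.7 and 46.5 CPM in INPUT (1.07 ± 0.23, limma adjusted p = 0.0033). In both genes the TRAP libraries lay close together and did not overlap with INPUT. Epha3, another kinase for A-type ephrins, had 8.15 to 10.9 CPM in TRAP and 2.57 to 4.56 CPM in INPUT (log2 fold change 1.46, limma adjusted p = 0.005). Epha10, whose kinase domain lacks catalytic activity, had 13.4, 13.1, 15.1 and 36.3 CPM in TRAP against 4.72 to 5.43 CPM in INPUT (1.82 ± 0.32, limma adjusted p = 0.00077). The highest TRAP value was that of VP2.11, and the other 3 pools also lay above INPUT. Epha6 did not pass the test (0.70 ± 0.36, limma adjusted p = 0.15).

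Ephb1, the EphB receptor with the highest level per kb here, had 19.1, 31.1, 24.5 and 23.6 CPM in TRAP and 34.5, 20.2, 27.1 and 26.7 CPM in INPUT. These values overlapped, and the log2 fold change was -0.14 ± 0.27 (SE, limma adjusted p = 0.72). The kinase-inactive Ephb6 had a log2 fold change of -0.41, and Ephb2 and Ephb3 had 0.29 and 0.86, all with a limma adjusted p of 0.23 or more. As a share of summed Eph receptor level per kb, Ephb1 stood at 6.44% ± 1.37 in TRAP and 16.0% ± 2.65 in INPUT, and Ephb6 at 3.48% ± 1.11 and 10.1% ± 1.36.

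**Figure D2:**
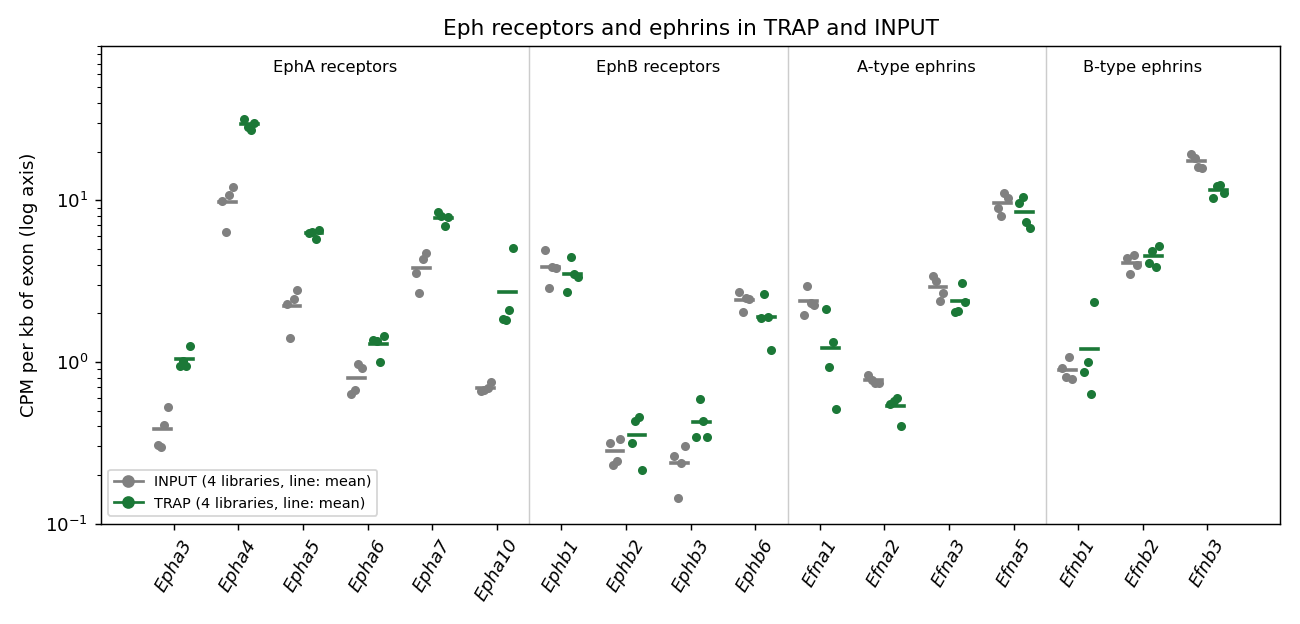
Level of each Eph receptor and ephrin in CPM per kb of exon (log axis), with INPUT libraries in grey, TRAP libraries in green and a line at the mean of 4 libraries. Epha4 stands at 29.4 in TRAP and 9.80 in INPUT, and Efnb3 at 11.5 and 17.4.

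The promoters of 3 EphA genes that were higher in TRAP, and of Ephb1 for contrast, are shown because the classes differed in how many members passed the test. Each is the 250 bases upstream of the RefSeq start (GRCm38.p6), given 5′ to 3′ on the strand of the gene, with the GC box GGGCGG (or its reverse complement) in capitals. The regions are chr1:77515089-77515338 (Epha4, minus strand), chr5:84417383-84417632 (Epha5, minus strand), chr4:28812881-28813130 (Epha7, plus strand) and chr9:102354694-102354943 (Ephb1, minus strand).
Epha4: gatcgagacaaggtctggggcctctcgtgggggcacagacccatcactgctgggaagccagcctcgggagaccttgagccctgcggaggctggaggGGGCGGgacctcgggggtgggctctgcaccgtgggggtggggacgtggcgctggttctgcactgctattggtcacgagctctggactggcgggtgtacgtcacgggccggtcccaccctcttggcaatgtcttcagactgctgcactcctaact
Epha5: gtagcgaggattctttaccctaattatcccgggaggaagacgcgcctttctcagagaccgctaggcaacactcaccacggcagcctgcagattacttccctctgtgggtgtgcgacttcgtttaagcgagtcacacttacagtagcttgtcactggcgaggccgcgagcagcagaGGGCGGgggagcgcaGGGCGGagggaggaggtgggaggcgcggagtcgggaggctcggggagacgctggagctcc
Epha7: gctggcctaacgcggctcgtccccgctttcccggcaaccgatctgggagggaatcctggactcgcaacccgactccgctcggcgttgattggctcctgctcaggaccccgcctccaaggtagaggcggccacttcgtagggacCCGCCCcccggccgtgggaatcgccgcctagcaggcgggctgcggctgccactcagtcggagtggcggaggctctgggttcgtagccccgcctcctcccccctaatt
Ephb1: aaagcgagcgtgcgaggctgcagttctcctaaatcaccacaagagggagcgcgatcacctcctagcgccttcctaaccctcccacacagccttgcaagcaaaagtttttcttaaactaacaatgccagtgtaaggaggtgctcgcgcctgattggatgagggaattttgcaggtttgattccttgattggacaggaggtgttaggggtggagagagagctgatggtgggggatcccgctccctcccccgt
RefSeq promoters were matched for 47 of the 57 members. Both strands of these 250 bases were searched for the GC box and for 2 E-box forms. Sites of different motifs may share end bases, and a match is a description of the letters alone. The GC box was present in 72.3% of the 47 member promoters, against 59.5% of the 10394 promoters matched to tested genes. In the 22 matched promoters of members higher in TRAP the share was 72.7%. The GC box was present in 5 of 6 EphA and 2 of 4 EphB promoters. Among those not shown, Epha3 was higher in TRAP and had 0 GC boxes, whereas Epha6 was not called and had 2. Ephb3 and Ephb6, not called either, had 2 and 5, so the 4 promoters shown do not stand for their classes. The E-box form CAGATG was present in 6.38% of member promoters and 9.84% of all. The form CAGCTG was present in 17.0% of member promoters and 11.9% of all. Median GC content was 63.2% for EphA and 67.0% for EphB promoters.

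The ephrins, the ligands of these receptors, lay on the other side of 0 or near it. Efnb3, a B-type ephrin, had the highest level per kb of all ligands in both fractions. Its TRAP levels were 32.9, 39.1, 39.5 and 35.5 CPM and its INPUT levels 61.4, 58.3, 51.4 and 50.6 CPM. All TRAP values were below all INPUT values, as for 24.4% of all genes, and the difference just missed the threshold (log2 fold change -0.59 ± 0.22 (SE), limma adjusted p = 0.051). Efnb3 passed it without the pool in the fit (limma adjusted p = 0.0039), where the SE was 0.13 and may understate the error. It also passed with array weights, with over 1 CPM required in all 8 libraries, with log2(CPM + 1) and without VP2.2 (limma adjusted p = 0.047). It did not pass in the other alternatives. Efna5, an A-type ephrin and the next in level, had 38.6, 42.2, 29.4 and 27.1 CPM in TRAP and 36.3, 32.1, 44.5 and 41.6 CPM in INPUT. TRAP was above INPUT in VP1.6 and VP2.2 and below it in VP2.6 and VP2.11, and the log2 fold change was -0.18 ± 0.25 (limma adjusted p = 0.6). Efnb2, a B-type ephrin, had 26.4 to 35.5 CPM in TRAP and 23.9 to 31.4 CPM in INPUT, which overlap (0.13 ± 0.24, limma adjusted p = 0.71; the sign was negative once an exon length trend was taken out). The other ephrins had log2 fold changes from -1.12 to 0.26, with a limma adjusted p of 0.087 or more. Summed per kb, EphA receptors reached 48.5 ± 3.64 (SD, n = 4) CPM per kb in TRAP and 17.7 ± 4.18 in INPUT. EphB receptors reached 6.17 ± 1.37 and 6.81 ± 1.20. Ephrins of both types together reached 29.9 ± 1.57 and 38.0 ± 1.32 and were lower in TRAP in all 4 pools. Single genes led these sums, with Epha4 at 60.75% of the EphA sum in TRAP and Efnb3 at 45.75% of the ephrin sum in INPUT. An opposite-strand gene overlaps 14.1% of the exon length of Efna3, and the strand setting of the counting is not given in the sources used here.

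Of the 6 class 3 semaphorins, which are secreted, 4 were higher in TRAP. Of the 11 plexins and neuropilins, which receive semaphorins, 7 were higher and 0 lower, against 15.4% of all genes higher and 16.8% lower. With the exon length trend taken out these became 3 of 6, and 5 of 11 with 1 lower, against 16.0% of all genes in each direction. Sema3e, a ligand of plexin D1, had 32.1, 41.2, 32.4 and 38.1 CPM in TRAP and 14.0, 7.68, 15.5 and 18.9 CPM in INPUT. The TRAP libraries all lay above INPUT, and the log2 fold change was 1.42 ± 0.28 (SE, limma adjusted p = 0.0018). Sema3c, which signals through neuropilins, had 19.7, 21.7, 13.9 and 34.1 CPM in TRAP and 6.11, 4.96, 11.3 and 9.13 CPM in INPUT (1.504 ± 0.32, limma adjusted p = 0.003). Its smallest gap was in VP2.6. Sema3d, a further secreted semaphorin, had a log2 fold change of 1.37 (limma adjusted p = 0.012, and 0.052 without VP2.2), and Sema3a, the neuropilin-1 ligand, had 1.12 (limma adjusted p = 0.01). Sema3b and Sema3f did not pass the test (-0.84 and 0.70), and each had 1 TRAP library at under 0.5 CPM.

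Nrp2, a neuropilin co-receptor, had 43.4, 47.9, 56.3 and 41.4 CPM in TRAP and 16.0, 10.6, 12.8 and 23.9 CPM in INPUT (1.64 ± 0.27 (SE), limma adjusted p = 0.00057). Nrp1, the other neuropilin, had 27.9 to 38.6 CPM in TRAP and 8.27 to 18.4 CPM in INPUT (1.28 ± 0.28, limma adjusted p = 0.0034). Neither neuropilin overlapped between fractions, and TRAP lay wholly above INPUT in 23.3% of all genes. Plxna4, a signalling plexin of the neuropilin complex, had 59.4, 74.2, 59.8 and 72.5 CPM in TRAP and 28.8, 15.1, 29.6 and 33.1 CPM in INPUT (1.37 ± 0.26, limma adjusted p = 0.0013). Plxna1, Plxna2, Plxnb3 and Plxnd1 were also higher, with log2 fold changes of 1.04 to 1.13. Of these, Plxnb3 had 33.1 CPM in the TRAP library of VP2.11 and 9.57 to 13.2 CPM in the other TRAP libraries. Its call was lost without VP2.2 (limma adjusted p = 0.087) and without VP2.11 (0.15), and that of Plxnd1 without VP2.6 (0.054). An opposite-strand gene overlaps 10.7% of the exon length of Plxna1. The remaining plexins, Plxna3, Plxnb1, Plxnb2 and Plxnc1, had log2 fold changes of 1.03, -0.83, 0.40 and 0.29 and did not pass the test.

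Membrane-held semaphorins were mixed. Sema5a, a transmembrane semaphorin with thrombospondin repeats, had 28.3, 50.4, 26.5 and 44.0 CPM in TRAP and 19.3, 6.82, 21.5 and 18.9 CPM in INPUT (1.24 ± 0.35 (SE), limma adjusted p = 0.015). The INPUT of VP2.2 stood well below the other INPUT libraries, and without VP2.2 the adjusted p was 0.057. Sema4a (1.02) and Sema6d (0.91) were also higher. The call of Sema4a was lost without VP2.2 (limma adjusted p = 0.1), VP2.6 (0.068) or VP2.11 (0.051), and that of Sema6d without VP2.2 (0.1) or VP2.11 (0.06) and with array weights. Sema4d, the transmembrane ligand of plexin B1, was the only member lower in TRAP. Its TRAP levels were 7.25, 7.43, 3.39 and 7.26 CPM and its INPUT levels 12.9, 13.5, 15.2 and 10.7 CPM (-1.10 ± 0.33, limma adjusted p = 0.02). The TRAP library of VP2.6 was the lowest, and without that pool the adjusted p was 0.18. Sema4d is known from oligodendrocytes, whose markers were also lower in TRAP, and their part in this difference was not tested.

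All 3 Slit genes, which encode secreted ligands of Robo receptors, were called higher in TRAP, against 15.4% of all genes. Slit1 had 2.18, 2.32, 2.72 and 5.32 CPM in TRAP and 0.392, 0.457, 0.509 and 0.833 CPM in INPUT (log2 fold change 2.48 ± 0.62 (SE), limma adjusted p = 0.0073). Since Slit1 passed the filter through TRAP alone, its call lends no support to the counts of Slits or secreted ligands, and on the log2(CPM + 1) scale its difference was 1.37, below that of Epha10 (1.64), Epha4 (1.61) and Nrp2 (1.57). Slit2 had 10.0 to 18.4 CPM in TRAP and 3.72 to 7.59 CPM in INPUT (1.32 ± 0.33, limma adjusted p = 0.0072). Slit3 had 5.95 to 12.0 CPM and 2.29 to 5.03 CPM (1.13 ± 0.38, limma adjusted p = 0.034). Its call was lost without VP2.2 (0.15), VP2.6 (0.056) or VP2.11 (0.081) and with array weights. The receptors differed from each other. Robo2 had 85.0, 70.1, 73.6 and 72.5 CPM in TRAP and 24.1, 20.7, 27.8 and 37.0 CPM in INPUT (1.49 ± 0.23, limma adjusted p = 0.00037), with no overlap. Robo1 had 19.1, 30.4, 25.6 and 46.2 CPM in TRAP and 28.1, 15.2, 21.2 and 18.8 CPM in INPUT, with TRAP below INPUT in VP1.6 only. Its log2 fold change was 0.51 ± 0.30 (limma adjusted p = 0.21) and turned negative once the exon length trend was taken out. The difference between Robo1 and Robo2 was not tested.

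In the netrin system, receptors and ligands did not move as a block. Unc5c, a repulsive netrin receptor, had 22.1, 28.97, 24.3 and 36.5 CPM in TRAP and 11.2, 6.56, 11.3 and 12.6 CPM in INPUT (1.44 ± 0.27 (SE), limma adjusted p = 0.0014). Unc5d, which has the highest level per kb of its family in TRAP, had 43.0, 63.0, 43.8 and 50.2 CPM in TRAP and 30.9, 14.9, 31.2 and 32.5 CPM in INPUT (0.92 ± 0.28, limma adjusted p = 0.021). For both genes the INPUT of VP2.2 was the lowest library, and without VP2.2 the adjusted p of Unc5d was 0.066. Unc5a and Unc5b, the other members of this receptor family, had log2 fold changes of 0.75 and -0.33 and did not pass the test. Dcc, the attractive netrin receptor, had 3.53, 6.37, 2.84 and 4.72 CPM in TRAP and 3.56, 2.09, 4.02 and 3.41 CPM in INPUT. These overlap, and the log2 fold change of 0.39 ± 0.44 (limma adjusted p = 0.52) turned negative without VP2.2 and once the exon length trend was taken out. Ntn1, the secreted netrin, had 2.33, 6.01, 2.12 and 5.21 CPM in TRAP and 10.3, 6.48, 8.33 and 6.41 CPM in INPUT. Every TRAP value was below every INPUT value, as for 24.4% of all genes, with a log2 fold change of -1.13 ± 0.42 (limma adjusted p = 0.051). Ntn1 passed the threshold without the pool in the fit (limma adjusted p = 0.025), where the error may be understated. It also passed with array weights, with over 1 CPM in all 8 libraries and with log2(CPM + 1). The same held with the exon length trend taken out (limma adjusted p = 0.017) and without VP2.2 (0.034) or VP2.11 (0.031). It did not pass in the other alternatives. Ntng1, netrin-G1, a membrane-anchored relative that acts at synapses, had 15.2, 22.5, 17.9 and 24.4 CPM in TRAP and 9.13, 4.79, 8.52 and 9.71 CPM in INPUT (1.34 ± 0.30, limma adjusted p = 0.004).

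**Figure D3:**
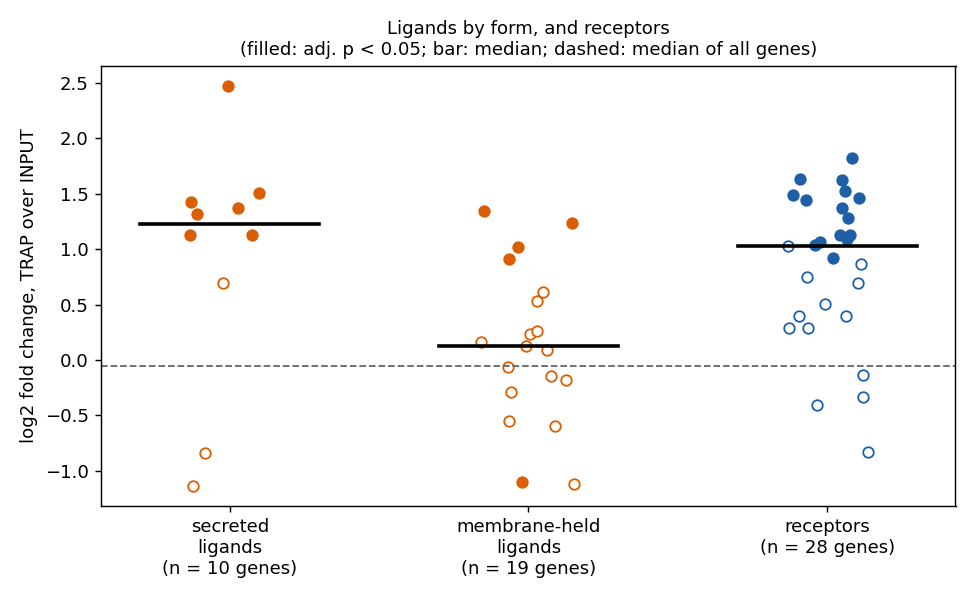
Log2 fold change, TRAP over INPUT, of each member by role and form. Filled circles passed the test, black bars are medians (1.22 for secreted ligands, 0.13 for membrane-held ligands and 1.03 for receptors) and the dashed line is the median of all genes (-0.05).

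Receptors and ligands were set against each other within pools. The receptor median exceeded the ligand median in all 4 pools, by 0.24 in VP1.6, 0.99 in VP2.2, 0.58 in VP2.6 and 0.10 in VP2.11 on the log2 scale. The difference over the mean of the pools was 0.77, with 0.45 without VP2.2, 0.93 without VP2.11, and 0.36 once the exon length trend was taken out. No test is given, since genes are not replicates. Secreted ligands exceeded membrane-held ligands by 0.72, 1.65, 0.64 and 1.00 in the same order. Summed per kb, receptors reached 101.1 ± 9.19 (SD, n = 4) CPM per kb in TRAP and 48.7 ± 10.2 in INPUT and were higher in all 4 pools, whereas ligands reached 65.3 ± 7.58 and 59.7 ± 4.46 and were higher in 2 of 4.

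**Figure D4:**
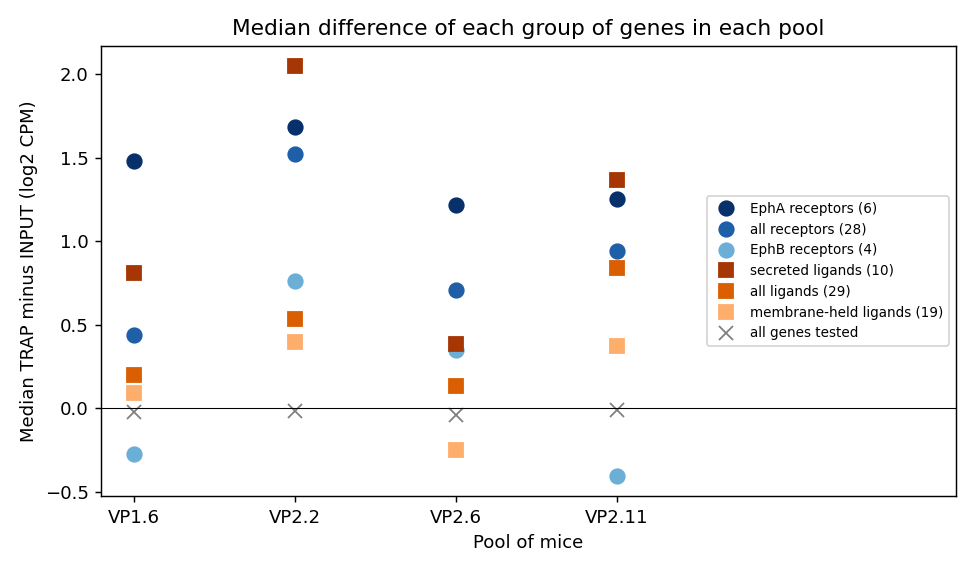
Median TRAP minus INPUT difference (log2 CPM, y axis) of 7 groups of genes in each pool (x axis), with circles for receptors, squares for ligands and crosses for all genes. EphA receptors lie at 1.22 to 1.68 in all pools, and the EphB median is below 0 in VP1.6 and VP2.11.

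Exon length and pool VP2.2 moved with these differences. Members had a median exon length of 7679 bp, against 4274 bp for all genes, with 8873 bp for receptors and 6067 bp for ligands. Over all genes, the TRAP minus INPUT difference correlated with exon length (Spearman correlation 0.57 in VP2.2 and 0.21 to 0.32 in the other pools, a description across genes, which are not independent). VP2.2 had the largest difference of the 4 pools in 35 of 57 members (61.4%), against 32.3% of all genes. With the trend on exon length taken out of each pool, 18 members were higher, all among the 26, and 3 were lower (Sema4d, Ntn1 and Plxnb1), against 16.0% of all genes in each direction. Then 12 receptors and 6 ligands were higher, and the 5 EphA receptors were among them (Epha4 1.28, adjusted p = 0.00018). The 8 that lost their call were Sema3a, Sema5a, Sema6d, Slit2, Slit3, Plxna2, Plxnb3 and Unc5d. The part of exon length in the other calls was not tested further. Without VP2.2, 19 members were higher, 13 receptors and 6 ligands, against 2119 of all 14249 genes.

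**Figure D5:**
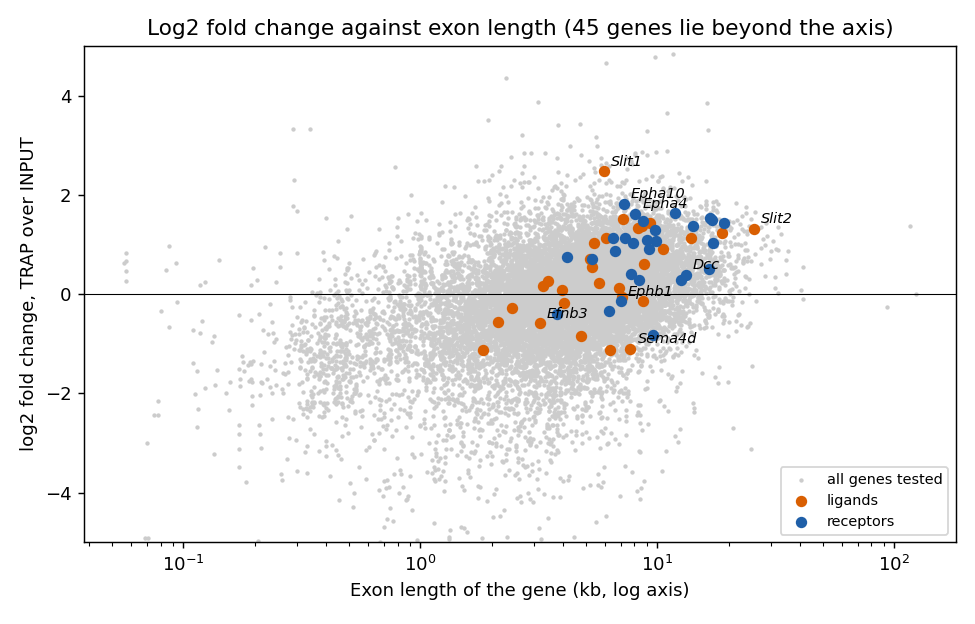
Log2 fold change, TRAP over INPUT (y axis), against exon length in kb (x axis, log) for all genes tested (grey), ligands (orange) and receptors (blue). 45 genes lie beyond the axis limits of -5 and 5, and most receptors lie above 0 at exon lengths above the median of all genes (4274 bp).

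Other genes of these pathways, adhesion genes among them, were followed with a list of 61 genes (signalling genes below), of which 59 were tested. Of these, 19 were higher in TRAP and 8 lower, against 15.4% and 16.8% of all genes, and the median was 0.44 on the log2 scale. With the exon length trend taken out, 14 were higher and 10 lower, against 16.0% of all genes in each direction, and the median was 0.001. Among the called genes, the largest increases were in L1cam, a cell adhesion molecule that takes part in semaphorin signalling (2.30, limma adjusted p = 1.1e-05), Dpysl3 (1.58) and Dpysl5 (1.56), which encode collapsin response mediator proteins, and Mical2 (1.54), an enzyme that oxidizes actin. Among the called genes, the largest decreases were in Mical1, a related enzyme (-1.95, limma adjusted p = 0.027), Vav2 (-1.56), a signalling gene downstream of Eph receptors, Chn2 (-1.29), which encodes a chimaerin, and Lrrc4b (-1.10), a synaptic adhesion gene. Mical1 and Vav2 had low mean TRAP levels of 1.16 and 1.62 CPM, against 34.8 CPM for Chn2 and 13.6 CPM for Lrrc4b. Lrrc4c, named after its values were seen as it encodes the netrin-G1 ligand, was lower in TRAP (-0.70 ± 0.22 (SE), limma adjusted p = 0.022), whereas Ntng1 was higher. By pathway, 8 of 21 genes of semaphorin signalling were higher and 2 lower, and 3 of 13 of Eph signalling were higher and 3 lower. Of Slit signalling 4 of 12 were higher and 0 lower, and of netrin signalling 4 of 13 were higher and 3 lower. Lrrc4b and Lrrc4c were among the 3 lower of the netrin list. With the exon length trend taken out, 0 of the netrin signalling genes were higher and 3 lower, 3 of the Slit signalling genes were higher and 1 lower, 2 of the Eph signalling genes were higher and 4 lower, and 9 of the semaphorin signalling genes were higher and 2 lower.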

How the data were processed

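RNA of 4 pools was measured as TRAP and INPUT, and groups and pools follow the sample labels. The authors used STAR 2.5.1a for alignment (GRCm38, Ensembl), featureCounts for uniquely aligned reads of each gene and TMM scaling in edgeR, and deposited log2 CPM values, besides their own fold changes and p-values, which were not used. The methods name an unbound fraction where the labels say Input. The deposited table held 14398 entries, of which 45 repeated a gene and were left out. It gives no read totals, so no counting interval is given.

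TRAP was compared with INPUT on the log2 values with limma 3.58.1 in R 4.3.3 (lmFit, eBayes with a trend, pool as a block, Benjamini-Hochberg over 14249 genes over 1 CPM in at least 3 libraries) and tested on simulated data. Pools pair the libraries because both come from 1 homogenate. Same-pool libraries deviated in opposite directions from their fraction means (r of -0.75 to -0.50 across genes), and in 14352 of 14353 genes the intervals between INPUT and TRAP of the 4 pools shared a common value (tolerance 0.005, log2), against 6899 to 8056 genes with INPUT from another pool. A member with TRAP above INPUT in all 4 pools therefore also had no overlap between fractions, which adds nothing to the count of pools, and SDs over libraries hold little pool-to-pool variation. The per-library values may thus be adjusted levels, and how this came about is not given in the sources used here. Exon lengths came from GENCODE M21 (GRCm38) and promoters from RefSeq.

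Members were taken by a rule on names, without use of their levels. That rule and the lists were set with earlier results of these data known. Named members were those called with the same sign in all pools (up to 16 per direction), the 4 ligands and 4 receptors highest in TRAP per kb, and all Dcc, Unc5, Slit and Robo genes. Other members were named after their values were seen. Alternatives were no block, array weights, other filters, log2(CPM + 1), centring, the exon length trend taken out (loess span 0.5), a size threshold, netrin-G left out of the ligands, and leaving out each pool.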

Additional observations from a re-analysis of the deposited data

Results flagged for a closer look

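In each of 54 groups of 4 libraries (27 named members in 2 fractions), the library farthest from the others was tested by its gap relative to the range (Dixon's ratio, at the 95% level). Chance gives about 1 in 20, or 2.7 groups, and 5 were found, 3 of them in the INPUT library of VP2.2. The 54 groups share the same 8 libraries and are not independent, so 5 against 2.7 is a description and not a test. In INPUT VP2.2, Sema5a was low at a log2 CPM of 2.769 (others 4.24 to 4.429), Unc5c at 2.714 (others 3.49 to 3.65) and Unc5d at 3.901 (others 4.95 to 5.02). Sema4d was low in TRAP VP2.6 at 1.763 (others 2.858 to 2.893). Epha10 was high in TRAP VP2.11 at 5.18 (others 3.714 to 3.916). Leaving out VP2.2 ended the calls of Sema5a and Unc5d, and leaving out VP2.6 ended that of Sema4d, while Epha10 was still called without VP2.11 and Unc5c without VP2.2.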

How the results depend on the processing

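The 26 members higher in TRAP were 30 without the pool as a replicate block, 23 with array weights, 24 with a size threshold of 1 on the log2 scale, and 19 to 27 when a pool was left out. Of all 14249 genes, 2199 were higher and 2393 lower in the main fit, and 2822 and 3191 with array weights. When a pool was left out, 1531 to 2119 genes were higher and 1673 to 2235 lower. The 15 receptors higher were 12 to 17 over all alternatives. The 1 member lower (Sema4d) became 4 without the replicate block, 4 with array weights, and 3 with over 1 CPM in all 8 libraries, with log2(CPM + 1) or with the exon length trend taken out, and 0 to 3 when a pool was left out (0 without VP2.6, 3 without VP2.2, 2 without VP2.11). The 11 ligands higher became 6 with the exon length trend taken out and 6 to 11 when a pool was left out (6 without VP2.2). The 19 signalling genes higher became 11 with the size threshold of 1. The receptor minus ligand median of 0.77 fell to 0.36 with the exon length trend taken out, and was 0.45 to 0.93 when a pool was left out. The sign reversed for Efnb2 (0.13) with array weights (-0.039) and with the length trend out (-0.13), for Robo1 (0.51) with the length trend out (-0.13), and for Dcc (0.39) with the length trend out (-0.16) and without VP2.2 (-0.013, range -0.013 to 0.69 over the pools left out). None of these 3 was called. Apart from fewer samples when a pool was left out, the cause of these changes was not tested. Without the replicate block, 23.2% of all genes were higher and 24.8% lower, and all 26 members were again called. That fit may understate the error, since the deposited values carry almost no shift common to a pool.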
